A study of Mus musculus with 12 samples.

Results

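Myeloid C-type lectin receptors were followed in mouse bone marrow-derived macrophages (BMDMs) through the genes Clec4a1, Clec4a2, Clec4a3, Clec4d, Clec4e, Clec4n, Clec7a, Clec12a, Clec10a and Mgl2. They were chosen by symbol, and all 10 were found among the 38739 symbols of the expression table. The cells came from wild-type (WT) mice and from mice that lack cGAS, the cytosolic DNA sensor (cGAS-/-), both on a C57BL/6J background, and they were given lipopolysaccharide (LPS) of E. coli 026:B6 or medium alone (UT). RNA-seq was run on 4 groups of 3 samples, namely each genotype with LPS and each genotype without it. The sample labels give LPS at 100 ng/mL for 1 h, whereas the methods of the study give 150 ng/mL for 24 h, so the length of exposure is uncertain. The knockout was not limited to macrophages, the number of mice behind the cultures is not given in the sources used here, and the 3 samples of a group were called technical replicates by the study, so that p-values measure only the spread between these samples. The labels state a macrophage cell type, although their extraction sentence names neutrophils.

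C-type lectin receptors are membrane proteins whose lectin-like domain binds sugars, lipids or proteins of microbes and of damaged cells. The activating ones, such as Mincle (Clec4e), MCL (Clec4d), dectin-2 (Clec4n) and dectin-1 (Clec7a), signal through the kinase Syk and the adaptor Card9, either by their own tail or by the Fc receptor gamma chain (Fcer1g). The inhibitory ones, such as DCIR (Clec4a2) and Clec12a, carry a tyrosine motif that recruits phosphatases such as Ptpn6, and the galactose-type lectins Clec10a and Mgl2 take up glycosylated ligands in macrophages and dendritic cells.

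On the GRCm39 assembly with the GENCODE annotation, 8 of the genes lie on chromosome 6 and 2 on chromosome 11. The Clec4 genes fill 370.7 kb (chr6:122896122-123266829), in the order Clec4a1, Clec4a3, Clec4a2, Clec4n, Clec4d and Clec4e, with only Clec4e on the minus strand. Clec12a and Clec7a lie within 130.1 kb further along (chr6:129319654-129449742), and Mgl2 and Clec10a within 40.71 kb of chromosome 11 (chr11:70020954-70061660). RefSeq promoter entries on GRCm38.p6 were matched for 8 of the 10 genes (the first entry where a gene had 2), and Clec4n and Clec10a were not matched. Below are the 250 bases that end at the annotated start of 4 of them, 5′ to 3′ on the strand of the gene. They are shown because the neighbours Clec4e and Clec4d differed in the size of their LPS response, Clec7a fell with LPS, and Clec4a1 differed most between genotypes in UT cells. Capitals mark matches, on either strand, to the short motifs GAGGAA (ETS factors such as PU.1), TTNNGNAA (C/EBP), TGANTCA (AP-1), TTCNNNGAA (STAT), and to the NF-kB and interferon response (ISRE) consensus motifs.
Clec4e (GRCm38.p6, chr6:123289872-123290121, minus strand): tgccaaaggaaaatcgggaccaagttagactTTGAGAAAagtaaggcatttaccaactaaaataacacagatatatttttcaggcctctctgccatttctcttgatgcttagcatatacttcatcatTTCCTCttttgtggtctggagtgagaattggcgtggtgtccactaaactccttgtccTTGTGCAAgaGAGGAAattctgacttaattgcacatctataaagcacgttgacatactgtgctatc
Clec4d (GRCm38.p6, chr6:123261857-123262106, plus strand): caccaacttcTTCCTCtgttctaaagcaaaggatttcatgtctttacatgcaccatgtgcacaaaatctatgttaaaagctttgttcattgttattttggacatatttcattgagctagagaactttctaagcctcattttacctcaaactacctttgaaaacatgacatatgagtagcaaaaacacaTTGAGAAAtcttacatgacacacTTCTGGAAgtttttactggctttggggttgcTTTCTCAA
Clec7a (GRCm38.p6, chr6:129472780-129473029, minus strand): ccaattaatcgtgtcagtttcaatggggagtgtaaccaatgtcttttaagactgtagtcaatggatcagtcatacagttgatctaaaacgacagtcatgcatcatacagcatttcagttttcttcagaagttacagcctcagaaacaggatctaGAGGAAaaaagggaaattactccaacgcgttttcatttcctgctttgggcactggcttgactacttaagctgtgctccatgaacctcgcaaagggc
Clec4a1 (GRCm38.p6, chr6:122921598-122921847, plus strand): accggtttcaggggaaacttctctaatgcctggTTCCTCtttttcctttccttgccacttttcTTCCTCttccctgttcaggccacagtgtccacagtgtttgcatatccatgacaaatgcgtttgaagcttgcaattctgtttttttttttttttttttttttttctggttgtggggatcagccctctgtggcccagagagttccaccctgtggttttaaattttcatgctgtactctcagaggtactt

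GAGGAA was found in 6 of the 8 receptor promoters, against 23.3% of the 32851 promoter entries over the same window. TTNNGNAA was found in 5 of the 8, against 36.8% of all entries, and in Clec4a2 a pair of its matches overlapped. Clec4e held 2 matches to each of these motifs, the nearest TTNNGNAA match starting 66 bases and the nearest GAGGAA match 56 bases before the start. Clec4d held 3 TTNNGNAA matches and 1 GAGGAA match, Clec7a 1 GAGGAA match and Clec4a1 2. TGANTCA was found only in Clec12a and TTCNNNGAA only in Clec4a2, each 1 of 8, against 6.75% and 7.02% of all entries. The NF-kB and ISRE motifs were in 0 of the 8 windows, against 0.98% and 2.98% of all entries, which says only that these letters are not in these windows. A match is a run of letters and not a bound site, and no binding was measured here.

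Before the receptors were compared, the samples were checked. The targeted gene Cgas ranged from 1.19 to 3.25 in WT samples and from 0.0703 to 0.291 in cGAS-/- samples, in TPM, a level scaled to transcript length and library total. WT LPS replicate 3 stood apart from the other samples. Its values summed to 709802, against 447189 to 503156 in the other samples, 18.5% of that sum came from protein-coding genes, against 39.7% to 54.4%, and the pseudogene Fth-ps3 alone took 31.75%. Results on the receptors that use the WT LPS samples are therefore also given without it, and the list counts are given both ways. Of 15 macrophage markers 11 were in the table, none was at 0 throughout a group, and their sum was 22990 to 36230 TPM. Most of this sum was Lyz2, at 15701 to 33426 TPM and highest in cGAS-/- LPS. Cd68 and Mrc1 were lower, and Fcgr1 higher, in every LPS sample than in any UT sample. The sums over lists of other cells were 2.58 to 9.38 TPM for dendritic cells (11 genes, Cd209a at 0 in 3 of the 4 groups), up to 1.68 for mast cells and basophils (5 genes, Fcer1a at 0 in every group) and up to 21 for erythroid cells (5 genes). The dendritic sum was 8.77 to 9.38 in WT UT, 5.37 to 7.15 in cGAS-/- UT and 2.58 to 3.38 over the LPS groups. In UT cells most of this sum was Itgax, at 6.57 to 7.07 TPM in WT and 3.70 to 6.02 in cGAS-/- samples. Flt3, Clec9a and Cd209a were at or below 0.0751 TPM in every sample, and Xcr1 was higher in every LPS sample than in any UT sample. The sum for neutrophils and their precursors (12 genes) was 177 to 252 in WT UT, 86.7 to 167 in cGAS-/- UT, 141 to 529 in WT LPS and 446 to 502 in cGAS-/- LPS. The monocyte sum (4 genes) was 16.7 to 17.4, 21.4 to 22.6, 9.40 to 25.8 and 8.15 to 9.82 in the same order, so that in UT cells both sums differed between genotypes without overlap. Most of the neutrophil sum in cGAS-/- LPS was Lcn2, at 348 to 377 TPM. In that group S100a8, S100a9, Ngp and Ltf were lower than in WT UT, and Csf3r and Mmp8 were higher. The B cell list, 7 genes led by Igkc and Ighm, summed to 108 to 134 TPM in WT UT, 20 to 28.6 in cGAS-/- UT, 30.7 to 45 in WT LPS and 3.08 to 8.89 in cGAS-/- LPS, while its member Pax5 was at or below 0.0221 TPM in every sample. The part of these values in the results was not tested. In bulk RNA, fewer cells of a type and less RNA per cell cannot be told apart.

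**Figure D1:**
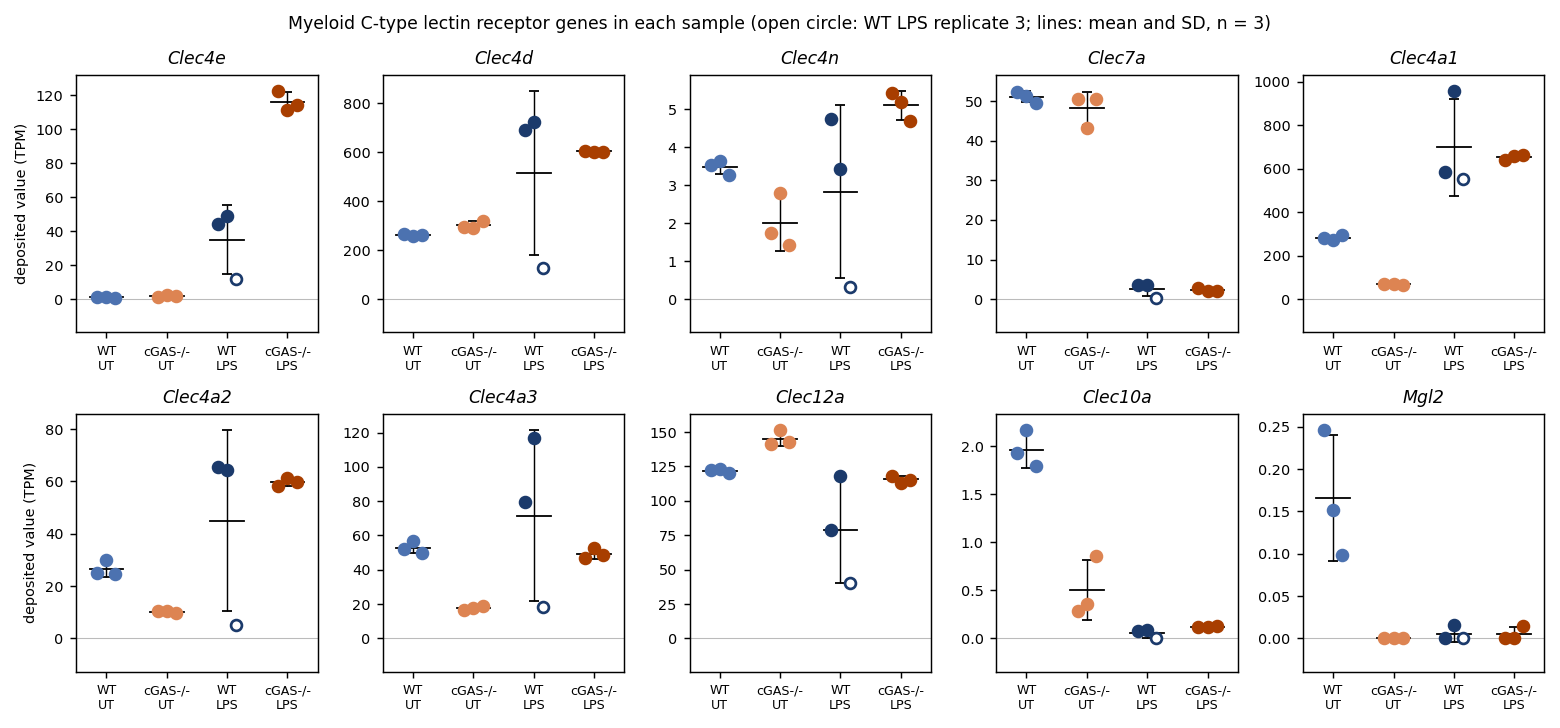
Deposited value (TPM, linear axes that differ between panels) of the 10 receptor genes in each of the 12 samples, with the mean and SD of each group of 3; the open circle is WT LPS replicate 3. Clec4e is near 0 without LPS and highest in cGAS-/- LPS (111 to 123), Clec7a is near 50 without LPS and below 4 with it, and Clec4a1, Clec4a2 and Clec4a3 are lower in cGAS-/- UT than in WT UT.

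The plot of values by sample shows 3 kinds of pattern. Clec4e and Clec4a1 were higher in every LPS sample than in any UT sample, and so was Clec4d except in WT LPS replicate 3. Clec7a and Clec10a were lower with LPS. Clec4a1, Clec4a2, Clec4a3, Clec4n and Clec10a were lower in cGAS-/- UT than in WT UT, with no overlap between the groups. Clec4d and Clec12a were higher in cGAS-/- UT than in WT UT, also with no overlap. The share of all genes without overlap was not counted, so this is a description only. Each value appears to be a mean TPM over the transcripts that share a symbol, so levels are compared between samples of one gene and never between genes. Differences are given as log2 fold changes of TPM + 1 from limma over all 12 samples, with the standard error (SE), and adjusted p is the Benjamini-Hochberg value over the 11887 genes tested, called under 0.05. Of the 10 receptors 9 passed the filter of 1 TPM in 3 samples, set after scaling each sample to a common total. Clec10a would not have passed without WT UT, the group where it was high, so its differences from that group were in part a condition of being tested, and Mgl2 did not pass.

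Clec4e, which encodes Mincle, the receptor for the mycobacterial cord factor and for a nuclear protein of dead cells, gave the largest rise with LPS of the receptors. It was at 1.36, 1.07 and 0.754 TPM in WT UT and at 0.997, 2.17 and 1.93 in cGAS-/- UT. It was at 44.1, 49.1 and 11.7 in WT LPS and at 123, 111 and 114 in cGAS-/- LPS. Every LPS sample was thus above every UT sample, the cGAS-/- LPS samples were above the WT LPS samples, and the UT groups overlapped. Clec4e rose with LPS by 3.90 ± 0.45 (SE) in WT cells (adjusted p = 0.00014) and by 5.47 ± 0.45 in cGAS-/- cells (adjusted p = 1.31e-05). Leaving out WT LPS replicate 3, the rise in WT cells was 4.54 ± 0.20 (adjusted p = 2.9e-07). The ratio of mean TPM, which the added 1 does not shrink, was 32.9 in WT and 68.3 in cGAS-/- cells.

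With LPS, Clec4e was higher in cGAS-/- than in WT cells by 1.94 ± 0.45, with an adjusted p of 0.0497, just inside the threshold. This call was lost in 16 of 25 other fits, among them the one on the 6 LPS samples alone (adjusted p = 0.486), the one with sample weights (1.45, adjusted p = 0.116) and the 9 that dropped one of the UT samples or one of the cGAS-/- LPS samples (adjusted p from 0.0777 to 0.181). The difference was 1.3 ± 0.20 without WT LPS replicate 3 and was called (adjusted p = 0.0038). The LPS effects of the genotypes differed by 1.56 ± 0.63 with all samples (adjusted p = 0.392) and by 0.93 ± 0.27 without replicate 3 (adjusted p = 0.0945), so a larger response in cGAS-/- cells was not established by the test of that difference. In UT cells the genotypes differed by 0.37, with a 95% interval from -0.61 to 1.35.

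Clec4d encodes MCL, also called dectin-3, which pairs with Mincle and lies beside it on the chromosome. It was at 265, 259.6 and 262 TPM in WT UT and at 296, 291 and 321 in cGAS-/- UT. It was at 690.5, 726 and 129 in WT LPS and at 607, 603 and 601 in cGAS-/- LPS. All LPS samples but WT LPS replicate 3 were above all UT samples, and that replicate was below them. With all samples the LPS effect was 0.61 ± 0.52 in WT cells (adjusted p = 0.387) and 1.00 ± 0.52 in cGAS-/- cells (adjusted p = 0.272), and neither was called. Without WT LPS replicate 3 Clec4d rose by 1.43 ± 0.08 in WT cells (adjusted p = 8.15e-07) and by 1.00 ± 0.07 in cGAS-/- cells (adjusted p = 3.04e-06). In that fit the LPS effect in cGAS-/- cells minus that in WT cells was -0.43 ± 0.10 (adjusted p = 0.0461), and with all samples it was 0.39 ± 0.74.

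Clec4n encodes dectin-2, a receptor for fungal mannans that needs the Fc receptor gamma chain. It was at 3.53, 3.63 and 3.27 TPM in WT UT, at 1.75, 2.81 and 1.44 in cGAS-/- UT, at 4.75, 3.44 and 0.311 in WT LPS and at 5.42, 5.20 and 4.69 in cGAS-/- LPS. The cGAS-/- UT samples were below the WT UT samples and the cGAS-/- LPS samples above both, while the WT LPS samples spread across all the other groups. No comparison was called with all samples. Clec4n rose with LPS in cGAS-/- cells by 1.05 ± 0.17 without WT LPS replicate 3 (adjusted p = 0.0012), and in WT cells the effect was 0.175, with a 95% interval from -0.26 to 0.61.

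Clec7a encodes dectin-1, the receptor for fungal beta-glucan, and it was lower with LPS. It was at 52.4, 51.4 and 49.6 TPM in WT UT and at 50.6, 43.4 and 50.7 in cGAS-/- UT. It was at 3.62, 3.5 and 0.395 in WT LPS and at 2.81, 2.0 and 2.01 in cGAS-/- LPS. Every LPS sample was below every UT sample, and the genotypes overlapped in both conditions. Clec7a fell with LPS, with a log2 fold change of -4.08 ± 0.39 in WT cells (adjusted p = 4.03e-05) and of -3.92 ± 0.39 in cGAS-/- cells (adjusted p = 6.24e-05), and ratios of means of 0.049 and 0.0472. The effect in WT cells was -3.52 ± 0.13 without WT LPS replicate 3 (adjusted p = 1.47e-07). In UT cells the genotypes differed by -0.09, with a 95% interval from -0.95 to 0.78. With LPS they differed by 0.08 with all samples and by -0.49 without WT LPS replicate 3 (adjusted p = 0.923 and 0.0543). The difference of the LPS effects was 0.17, with an interval from -1.06 to 1.39, and -0.40 without that replicate (adjusted p = 0.292).

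**Figure D2:**
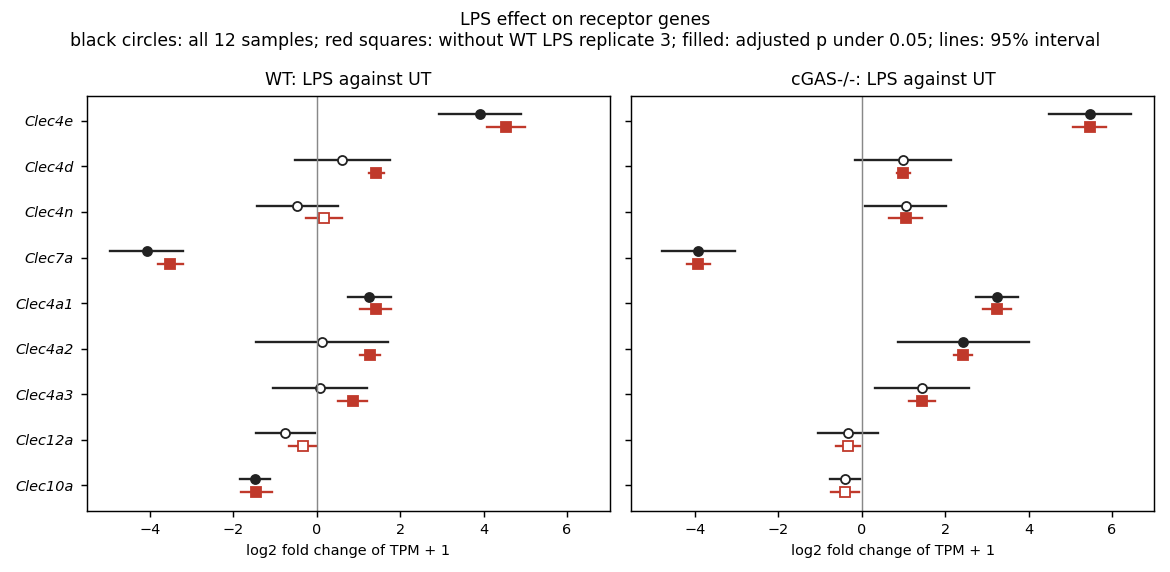
Effect of LPS on the 9 tested receptor genes in WT (left) and cGAS-/- cells (right), as log2 fold change of TPM + 1 with its 95% interval; black circles are from all 12 samples and red squares from the fit without WT LPS replicate 3, and filled symbols have an adjusted p under 0.05. Clec4e lies furthest to the right and Clec7a furthest to the left in both panels, and Clec4d, Clec4a2 and Clec4a3 in WT cells are called only in the fit without that sample.

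Counted over the receptors, 4 of the 9 tested were called with LPS in WT cells. Clec4e and Clec4a1 were higher, against 4.31% of all genes called higher, and Clec7a and Clec10a were lower, against 23.3% called lower. In cGAS-/- cells 3 were higher (Clec4e, Clec4a1 and Clec4a2, against 4.76% of all genes) and 1 was lower (Clec7a, against 9.06%). The study also asked for a fold change beyond 2 on the log2 scale. Clec4e and Clec7a passed both thresholds in WT cells (4.32% of all genes), and these with Clec4a1 and Clec4a2 passed them in cGAS-/- cells (3.5% of all genes). The median over the 9 receptors was 0.08 in WT and 1.05 in cGAS-/- cells, and over all genes tested it was -0.46 and -0.20. Without WT LPS replicate 3 the median in WT cells was 0.855 over the receptors and -0.291 over all genes. The medians over all genes depend on the scaling, and with TMM factors (trimmed mean of M values) and all samples they were -0.11 and 0.00. In WT cells 15.6% of the genes called were higher, against 38.1% with TMM factors and 34.7% after quantile normalization. In cGAS-/- cells 34.4% were higher, against 51.4% with TMM factors, 44.8% after quantile normalization and 19.8% after rescaling to the protein-coding total. With those factors Clec4d was called in both genotypes (1.26, adjusted p = 0.043, and 1.33, adjusted p = 0.0445), Clec4a1 rose by 1.91 ± 0.17 in WT cells, and Clec4a3 was called in cGAS-/- cells (1.76, adjusted p = 0.0071). Without WT LPS replicate 3, 7 of the 9 were called in WT cells, against 34.7% of all genes, and 7 of the 9 in cGAS-/- cells, against 30.8%.

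Clec4a1, Clec4a2 and Clec4a3 are paralogs of the DCIR family at the start of the chromosome 6 cluster. In UT cells 1 of them, Clec4a1, was called lower in cGAS-/- cells with all samples. Clec4a4, a further paralog, differed there by 0.08 ± 0.43 and was not called. Its mean was only 0.175 TPM in WT UT and 0.247 in cGAS-/- UT, too low for log2 of TPM + 1 to show a difference. Clec4a1 was at 279.6, 273 and 293 TPM in WT UT and at 69.7, 71.1 and 64.4 in cGAS-/- UT. It was at 587, 957 and 551 in WT LPS and at 642, 660.5 and 662 in cGAS-/- LPS. The UT groups did not overlap, and with LPS the genotypes overlapped. Clec4a1 was lower in cGAS-/- UT than in WT UT, with a log2 fold change of -2.03 ± 0.23 (adjusted p = 0.000806) and a ratio of means of 0.243.

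Clec4a1 rose with LPS by 1.26 ± 0.23 in WT cells (adjusted p = 0.00279) and by 3.24 ± 0.23 in cGAS-/- cells (adjusted p = 5.93e-06). In the WT samples alone its rise was not called (adjusted p = 0.0925), and without WT LPS replicate 3 it was 1.41 ± 0.17 (adjusted p = 0.00017). The effects differed by 1.98 ± 0.33 (adjusted p = 0.0193). This difference was 1.83 ± 0.22 without WT LPS replicate 3 (adjusted p = 0.00185), and it was between 1.94 and 2.01 but not called when one of the UT samples or one of the cGAS-/- LPS samples was dropped (adjusted p from 0.0655 to 0.0817). After LPS the genotypes differed by -0.05, with a 95% interval from -0.56 to 0.46, and by -0.20 without that replicate (adjusted p = 0.537).

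Clec4a2 encodes DCIR, which carries an inhibitory tail motif. It was at 24.9, 29.9 and 24.8 TPM in WT UT and at 10.4, 10.6 and 9.72 in cGAS-/- UT. It was at 65.4, 64.4 and 5.14 in WT LPS and at 58.3, 61.2 and 59.8 in cGAS-/- LPS. In UT cells every cGAS-/- sample was below every WT sample, and the log2 fold change of -1.29 ± 0.71 was not called over 12 samples (adjusted p = 0.854). The same difference was called from the 6 UT samples alone (SE 0.09, adjusted p = 0.00114) and without WT LPS replicate 3 (adjusted p = 4.95e-05). That replicate was at 0.0792 of the mean of the other WT LPS samples, against a median of 0.337 over all genes tested, and the SE shared by the comparisons was 0.71 with it and 0.10 without it.

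Clec4a2 rose with LPS in cGAS-/- cells by 2.43 ± 0.71 (adjusted p = 0.0445), a call lost on dropping one of the UT samples or one of the cGAS-/- LPS samples (adjusted p from 0.0651 to 0.12), and by 2.43 ± 0.10 without WT LPS replicate 3 (adjusted p = 7.48e-08). In WT cells the effect was 0.12 ± 0.71 with all samples (adjusted p = 0.907) and 1.27 ± 0.11 without replicate 3 (adjusted p = 1.78e-05). The effects differed by 2.31 ± 1.01 with all samples (adjusted p = 0.435) and by 1.17 ± 0.14 without replicate 3 (adjusted p = 0.00188). After LPS the genotypes differed by 1.02 with all samples (adjusted p = 0.434) and by -0.12 without replicate 3, with a 95% interval from -0.36 to 0.12. Part of Clec4a2 is shared with close relatives, with 96.1% identity over 439 bases of a Clec4b1 transcript and 91.1% over 459 bases of a Clec4a4 transcript, so that its value is uncertain to the extent that reads were divided among them. Clec4b1 itself fell with LPS, with log2 fold changes of -2.24 ± 0.35 in WT and -1.56 ± 0.35 in cGAS-/- cells (adjusted p = 0.000991 and 0.0112).

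Clec4a3 was at 52.1, 56.6 and 50.1 TPM in WT UT and at 16.5, 17.6 and 18.8 in cGAS-/- UT. It was at 79.5, 117 and 18.4 in WT LPS and at 46.9, 52.6 and 48.9 in cGAS-/- LPS. The UT groups did not overlap, and apart from replicate 3 the WT LPS samples were above all the others. The UT difference of -1.53 ± 0.51 was not called over 12 samples (adjusted p = 0.277), was called from the 6 UT samples alone (adjusted p = 0.000299) and was called without WT LPS replicate 3 (adjusted p = 0.000162). Unlike Clec4a1 and Clec4a2, it was also lower in cGAS-/- than in WT cells after LPS without that replicate (-0.95 ± 0.15, adjusted p = 0.00467), a difference of -0.18 ± 0.51 with all samples. With all samples its LPS effect was 0.08 ± 0.51 in WT and 1.44 ± 0.51 in cGAS-/- cells (adjusted p = 0.917 and 0.0957), a difference of 1.36 ± 0.73 (adjusted p = 0.537), and none was called. Without the replicate it rose with LPS by 0.86 ± 0.15 in WT and 1.44 ± 0.14 in cGAS-/- cells (adjusted p = 0.00217 and 3.06e-05), and these effects differed by 0.58 ± 0.21 (adjusted p = 0.173).

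Clec12a, an inhibitory receptor that recognises uric acid crystals of dead cells, had the narrowest range of the receptors in relative terms, from 40.1 to 151 TPM. It was at 122, 123 and 120.4 TPM in WT UT, at 141, 151 and 142 in cGAS-/- UT, at 78.6, 118 and 40.1 in WT LPS and at 118, 113 and 115 in cGAS-/- LPS. The LPS samples were below the UT samples of their genotype. No difference was called in the fit described above or without WT LPS replicate 3. After rescaling to the protein-coding total it was lower with LPS in WT cells (-0.79, adjusted p = 0.0156), an effect of -0.11 with TMM factors, and with sample weights it was lower with LPS in cGAS-/- cells (-0.33, adjusted p = 0.00208). Without WT LPS replicate 2, the highest of its group, Clec12a was lower with LPS in WT cells (-1.10, adjusted p = 0.00582) and higher in cGAS-/- than in WT cells with LPS (1.03, adjusted p = 0.0161). From the 6 samples compared alone, Clec12a was higher in cGAS-/- UT by 0.25 ± 0.04 (adjusted p = 0.0174) and lower with LPS in cGAS-/- cells (-0.32 ± 0.04, adjusted p = 0.00144), an effect of 0.007 with TMM factors.

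Clec10a encodes MGL1, a lectin for galactose and N-acetylgalactosamine that is often used as a marker of alternatively activated macrophages. It was at 1.93, 2.16 and 1.80 TPM in WT UT, at 0.290, 0.353 and 0.857 in cGAS-/- UT, at 0.0806, 0.0895 and 0 in WT LPS and at 0.121, 0.120 and 0.127 in cGAS-/- LPS. The groups did not overlap, in the order WT UT, cGAS-/- UT, cGAS-/- LPS and WT LPS. Clec10a was lower in cGAS-/- UT than in WT UT (-1.0 ± 0.16, adjusted p = 0.00769) and fell with LPS in WT cells (-1.49 ± 0.16, adjusted p = 9.44e-05, and -1.45 ± 0.17 without WT LPS replicate 3, adjusted p = 0.000151). The dendritic cell sum, mostly Itgax in UT cells, was also highest in WT UT, and its part in this was not tested. In cGAS-/- cells the LPS effect was -0.40 ± 0.16 (adjusted p = 0.144), and the effects differed by 1.09 ± 0.23 (adjusted p = 0.054). That difference was called on dropping cGAS-/- UT replicate 3 (adjusted p = 0.03), WT LPS replicate 2 (0.0193) or WT LPS replicate 3 (0.0311). Mgl2, its neighbour and closest paralog, was at 0.246, 0.152 and 0.0989 TPM in WT UT and was listed at 0 in 7 of the other 9 samples, with 0.0158 in 1 WT LPS and 0.0145 in 1 cGAS-/- LPS sample. These genes share 92.8% identity over 857 bases, so the low Mgl2 values can hold reads of Clec10a.

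**Figure D3:**
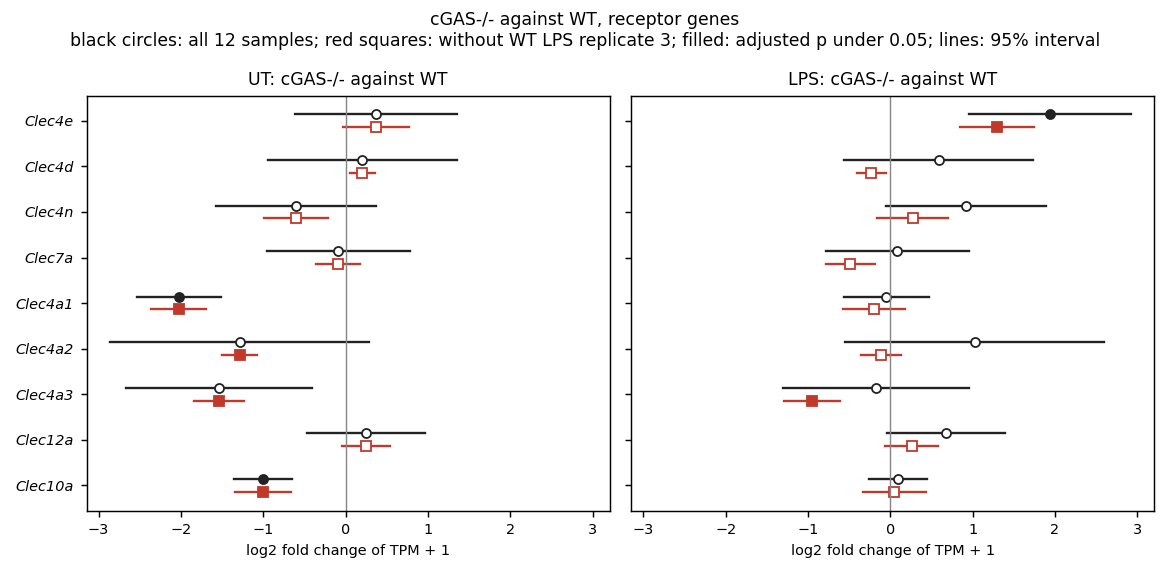
Difference between cGAS-/- and WT cells for the 9 tested receptor genes without LPS (left) and with LPS (right), as log2 fold change of TPM + 1 with its 95% interval; symbols as in the plot of LPS effects. Clec4a1, Clec4a2, Clec4a3 and Clec10a lie to the left of 0 in UT cells, and Clec4e lies to the right with LPS in both fits.

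Counted over the receptors, 2 of the 9 tested were lower in cGAS-/- UT cells, against 1.58% of all genes, and none was higher, against 0.252%. One of these, Clec10a, was tested only because it was high in WT UT, so the count is not support for a lower level. Only Clec4a1 passed both thresholds (0.37% of all genes). At an unadjusted p under 0.05, limma gave 3 of the 9 in UT cells (8.08% of all genes), 1 with LPS (18.8%) and 5 for the difference of the LPS effects (11.1%). Of all genes called in UT cells 13.8% were higher, against 25.7% after quantile normalization. Without WT LPS replicate 3, 4 of the 9 were called in UT cells, against 5.33% of all genes, all of them lower. With LPS, Clec4e was called higher, against 1.36% of all genes, and none was lower, against 1%. None passed both thresholds, which 0.614% of all genes did, and without replicate 3, 2 of the 9 were called (Clec4e and Clec4a3), against 8.28%. The number of all genes called with LPS between genotypes was 281, against 508 with TMM factors and 550 after quantile normalization. For the difference of the LPS effects 1 was called higher (Clec4a1), against 0.732%, none lower, against 0.168%, and none passed both thresholds, against 0.404%. Without replicate 3, 4 of the 9 were called there (Clec4a1, Clec4a2, Clec10a and Clec4d), against 4.56%. These comparisons share their control samples, so a low UT value in cGAS-/- cells enters both the UT difference and the LPS effect.

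The genes whose log2 level was most like that of each receptor over the 12 samples were found by Pearson's r, as a description, since all points share the same libraries and conditions. For Clec4e they were Nfkbia (r = 0.9956) and Il1b (0.9920), and for Clec7a Chst11 (0.9968) and Tecpr1 (0.9954). For Clec4d they were Hmox1 (0.9845) and Psma5 (0.9830), for Clec4n Stard5 (0.9710) and Pf4 (0.9576), and for Clec12a Brox (0.9967) and B230219D22Rik (0.9912). For Clec4a1 they were Cmklr1 (0.9786) and Ikbke (0.9771), for Clec4a2 Limd2 (0.9829) and Pirb (0.9745), and for Clec4a3 Il21r (0.9772) and Acp5 (0.9595). For Clec10a they were Ccne2 (0.9930) and Plk1 (0.9866). Among the receptors themselves, r was 0.90 for Clec4a2 with Clec4n, 0.883 for Clec4a2 with Clec4a3 and -0.882 for Clec4e with Clec7a.

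Of 44 other C-type lectin genes on a fixed list, 43 were in the table and 14 were tested. Mrc1, the macrophage mannose receptor, was lower in cGAS-/- cells both without and with LPS. It was between 73.4 and 85.2 TPM in WT UT, 23.5 and 25.6 in cGAS-/- UT, 3.85 and 10.9 in WT LPS and 0.857 and 1.10 in cGAS-/- LPS, and no groups overlapped. It differed by -1.68 ± 0.29 in UT cells (adjusted p = 0.0121) and by -1.99 ± 0.29 with LPS (adjusted p = 0.00582), and its LPS effect was -3.41 in WT and -3.72 in cGAS-/- cells (adjusted p = 1.89e-05 and 1.05e-05). Leaving out WT LPS replicate 3, the genotypes differed by -1.68 ± 0.19 with LPS (adjusted p = 0.000562). Clec5a, an activating receptor that signals through the adaptor Tyrobp, was between 2.70 and 4.06 TPM in the first 3 of these groups and between 9.34 and 10.8 in cGAS-/- LPS. It was higher in cGAS-/- than in WT cells with LPS by 1.25 ± 0.19 (adjusted p = 0.00636) and rose with LPS in cGAS-/- cells by 1.44 ± 0.19 (adjusted p = 0.000359). The difference with LPS was 1.26 ± 0.16 without that replicate (adjusted p = 0.00109).

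In the other lectins, 3 of the 14 were called higher and 5 lower with LPS in WT cells, against 4.31% and 23.3% of all genes, and 4 higher and 5 lower in cGAS-/- cells, against 4.76% and 9.06%. Leaving out WT LPS replicate 3, these counts were 5 and 5 in WT and 6 and 5 in cGAS-/- cells, against 34.7% and 30.8% of all genes called. Cd302 and Cd69, an early activation antigen, were higher in both genotypes, by 1.29 and 1.80 in WT and by 2.0 and 2.97 in cGAS-/- cells. Cd207, Clec2i, Clec4b1, Mrc1 and Thbd were lower in both. Cd69 and Ly75, the latter called higher with LPS in cGAS-/- cells alone, would not have passed the filter without cGAS-/- LPS. Cd207 and Clec2i would not have passed it without the UT samples, so these effects are in part a condition of being tested. Cd69 rose by 2.49 in WT cells without WT LPS replicate 3. Between genotypes, Mrc1 alone was called in UT cells, against 1.58% of all genes called lower. With LPS Clec5a was higher, against 1.36%, and Mrc1 and Cd209c were lower, against 1%, the latter with a log2 fold change of -1.04 ± 0.23 (adjusted p = 0.04). Cd209c passed the filter through WT samples alone, so this difference is in part a condition of being tested. Leaving out that replicate, 1 was called lower in UT cells, and 2 were higher and 5 lower with LPS, against 5.33% and 8.28% of all genes called. For the difference of the LPS effects limma called 0 of the 14, with 2 at an unadjusted p under 0.05 (11.1% of all genes), and 3 without WT LPS replicate 3, against 4.56% of all genes called. The median over the 14 was -0.17 and -0.02 between genotypes in UT and LPS cells and 0.23 and 0.51 with LPS in WT and cGAS-/- cells. Without WT LPS replicate 3 it was -0.19 between genotypes in LPS cells and 0.17 with LPS in WT cells.

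**Figure D4:**
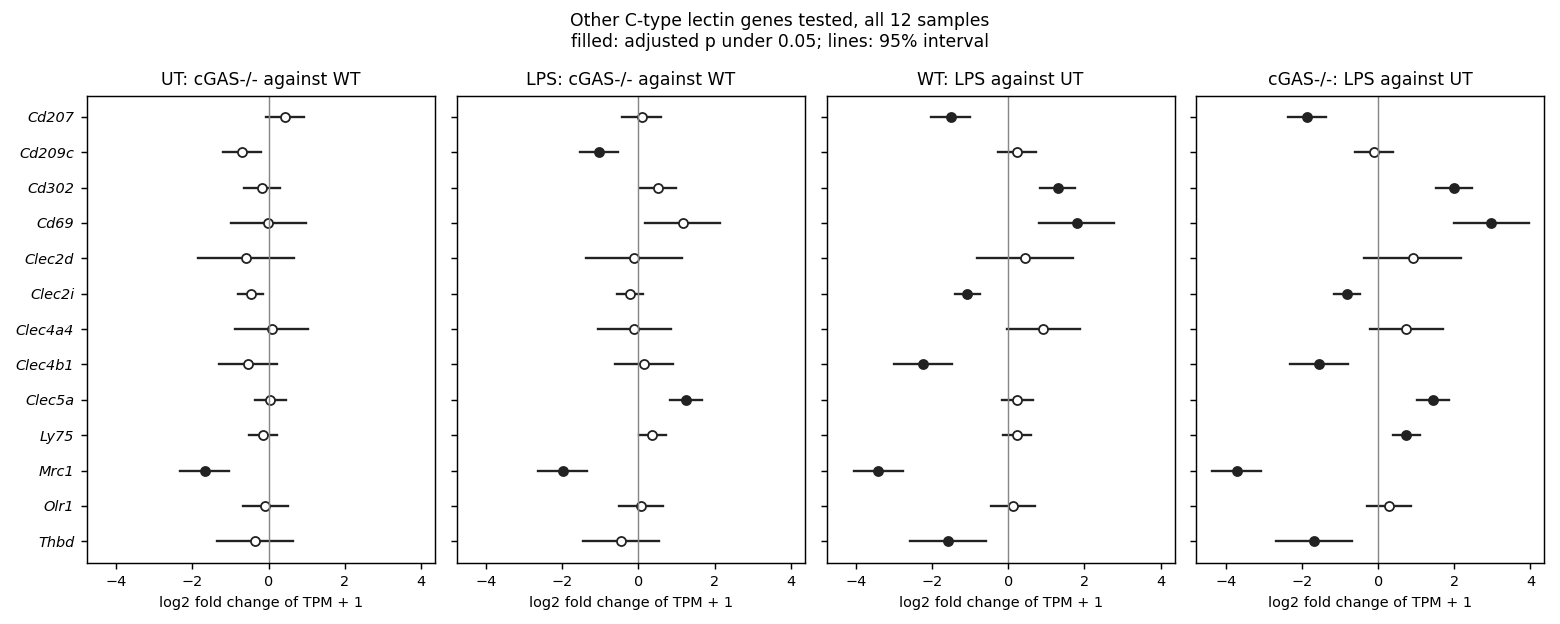
Other C-type lectin genes, 13 of the 14 tested, as log2 fold change of TPM + 1 with its 95% interval from all 12 samples, in the comparisons of genotype (UT, LPS) and of LPS (WT, cGAS-/-); filled circles have an adjusted p under 0.05. Mrc1 lies to the left of 0 in all 4 panels, and Clec5a is called only in the panels that hold cGAS-/- LPS.

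Of 32 genes downstream of activating receptors 24 were tested. Fcer1g was between 511.7 and 548 TPM in WT UT, 490.4 and 503 in cGAS-/- UT, 421 and 1756 in WT LPS and 1124 and 1175 in cGAS-/- LPS, and its LPS effect was 0.81 ± 0.40 in WT and 1.21 ± 0.40 in cGAS-/- cells (adjusted p = 0.142 and 0.0703). Fcer1g, without WT LPS replicate 3, rose by 1.39 in WT and 1.21 in cGAS-/- cells (adjusted p = 0.000116 and 0.000111). Syk was at a mean of 39.3 ± 0.87 (SD, n = 3), 31.9 ± 0.43, 32.5 ± 20.3 and 65.9 ± 2.55 TPM in WT UT, cGAS-/- UT, WT LPS and cGAS-/- LPS. Its LPS effect in cGAS-/- cells was 1.02 ± 0.35 (adjusted p = 0.0789, and 0.00686 without WT LPS replicate 3). Card9 was between 16.5 and 46.7 TPM, with LPS effects of 0.10 and 0.02 in WT and cGAS-/- cells. Its effect in WT cells was -0.30 without WT LPS replicate 3 (adjusted p = 0.138).

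In that list 2 of the 24 genes were higher and 3 lower with LPS in WT cells, against 4.31% and 23.3% of all genes, and 3 higher and 2 lower in cGAS-/- cells, against 4.76% and 9.06%. Leaving out WT LPS replicate 3, 5 were higher and 3 lower in WT cells (34.7% of all genes called), and 8 higher and 3 lower in cGAS-/- cells (30.8%). The adaptor gene Traf2 rose by 1.35 ± 0.34 and 1.14 ± 0.34 (adjusted p = 0.0149 and 0.0487), while the log2 fold changes were -1.31 and -1.54 for the kinase Fyn and -1.33 and -1.21 for the exchange factor Vav3, in WT and cGAS-/- cells. Between genotypes limma called 0 of 24 in UT cells and 0 of 24 with LPS, with 1 and 4 at an unadjusted p under 0.05 (8.08% and 18.8% of all genes), and 0 for the difference of the LPS effects, with 2 (11.1%). These were also 0 without that replicate, against 5.33%, 8.28% and 4.56% of all genes called. At an unadjusted p under 0.05 there were then 3, 3 and 6, but the share of all genes at that threshold was not counted in that fit. Of the 10 tested genes of inhibitory signalling, the phosphatase gene Ptpn22 fell with LPS (-1.2 in WT and -1.02 in cGAS-/- cells, adjusted p = 0.0137 and 0.0446), the only one called lower, against 23.3% and 9.06% of all genes. The adaptor gene Dok3 rose in cGAS-/- cells by 1.01 ± 0.26 (adjusted p = 0.026), the only one called higher, against 4.76%. Ptpn6, the phosphatase that inhibitory receptors recruit, was not called with all samples (-0.32 ± 0.37 and 0.88 ± 0.37 with LPS in WT and cGAS-/- cells, adjusted p = 0.527 and 0.162), but it rose in cGAS-/- cells in the fit without WT LPS replicate 3 (0.88 ± 0.26, adjusted p = 0.029). In that fit its effect in WT cells was 0.04 ± 0.29 (adjusted p = 0.92). Limma called 0 of the 10 between genotypes, with 1 in UT cells and 4 with LPS at an unadjusted p under 0.05 (8.08% and 18.8% of all genes), and 0 for the difference of the LPS effects, with 2 (11.1%). In the fit without WT LPS replicate 3, Dok3 was called lower in cGAS-/- UT cells (-0.66 ± 0.13, adjusted p = 0.014), against 5.33% of all genes called. For the difference of the LPS effects Dok3 was then called higher and Inpp5d lower, against 4.56%. With LPS, 1 was then called higher and 1 lower in WT cells, against 34.7% of all genes called, and 3 higher and 2 lower in cGAS-/- cells, against 30.8%.

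Among 27 genes that activating receptors are known to induce, which LPS also induces directly, 18 were tested. With LPS 13 rose and Egr2 fell in WT cells, against 4.31% and 23.3% of all genes, and 12 rose and Egr2 fell in cGAS-/- cells, against 4.76% and 9.06%. In the fit without WT LPS replicate 3, 14 rose in WT and 15 in cGAS-/- cells, and Egr2 fell in both, against 34.7% and 30.8% of all genes called. Il1a rose by 4.97 and 7.02 and Il1b by 4.33 and 7.22 in WT and cGAS-/- cells, Nos2 by 2.97 and 3.59, and Cxcl3 by 2.78 and 6.0 (3.51 in WT cells without WT LPS replicate 3). With LPS, 8 of the 18 were higher in cGAS-/- than in WT cells, against 1.36% of all genes, and none was lower, against 1%. Among them were Cxcl3 (3.17 ± 0.54, adjusted p = 0.0126), Il1b (3.11 ± 0.50, adjusted p = 0.00907) and Il6 (3.09 ± 0.16, adjusted p = 4.24e-06), which were at 2.44, 2.57 and 2.99 without WT LPS replicate 3. The median over the 18 was 1.63, against 0.20 over all genes tested. It was 0.90 without WT LPS replicate 3, against 0.04, with 11 genes called higher and Il10 lower, against 8.28% of all genes called. In UT cells limma called 0 of the 18, with 2 at an unadjusted p under 0.05 (8.08% of all genes). In the fit without that replicate Ccl4 and Nlrp3 were called higher there, against 5.33% of all genes called. The LPS effects differed for Il6, Il1a and Il12a, all higher, against 0.732% of all genes called higher and 0.168% lower. Without the replicate they differed for 8 of the 18, with 7 higher and Ccl4 lower, against 4.56% called. Il12a and Il6 would not have passed the filter without cGAS-/- LPS, the group where they were high, so their differences from that group are in part a condition of being tested, and Nos2 passed it through LPS samples alone. Egr2 would not have passed it without the UT samples.

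Of 19 transcription factors known to act on receptor genes of this family, 16 were tested, and with LPS 3 rose and 4 fell in WT cells, against 4.31% and 23.3% of all genes, while 3 rose and 3 fell in cGAS-/- cells, against 4.76% and 9.06%. In the fit without WT LPS replicate 3, 4 rose and 4 fell in WT and 5 rose and 5 fell in cGAS-/- cells, against 34.7% and 30.8% of all genes called. Cebpa fell, with log2 fold changes of -3.75 ± 0.56 in WT and -3.06 ± 0.56 in cGAS-/- cells, as did Pparg, a factor of alternative activation, with -2.68 ± 0.22 and -3.23 ± 0.22. Pparg, and Batf3 among the genes that fell in WT cells, would not have passed the filter without the UT samples. Their falls are therefore in part a condition of being tested. Cebpa had a log2 fold change of -2.89 ± 0.14 in WT cells without WT LPS replicate 3. Between genotypes limma called 0 of the 16, with 0 in UT cells and 4 with LPS at an unadjusted p under 0.05 (8.08% and 18.8% of all genes), and 0 for the difference of the LPS effects, with 2 (11.1%). Leaving out that replicate, 0 were called in UT cells, against 5.33% of all genes, 4 were lower with LPS, against 8.28%, and 2 were lower for the difference, against 4.56%. In UT cells 4 were then at an unadjusted p under 0.05, but the share of all genes at that threshold was not counted in that fit.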

How the data were processed

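RNA-seq was made from 12 BMDM samples with a stranded mRNA kit. The authors' processing notes name fastp, STAR, kallisto and the GRCm39 assembly (versions not given in the sources used here). The deposited values were read as a mean TPM across a symbol's transcripts, an inference from the values. The table stops on chromosome 13, and genes beyond that point were not analysed here. Read counts were not used here, so depth is unknown, and no counting interval is given. Groups were taken from the labels. Genes with at least 1 TPM in at least 3 samples, after scaling to a total of 1000000 for the filter only, were kept (11887), and log2(TPM + 1) was fitted in limma 3.58.1 (R 4.3.3) with a mean per group and a variance trend. The pseudocount of 1 shrinks the fold changes of low genes. The fit was also run on simulated data as a check of the code, and the outcome is not reported here. Transcripts of lectin genes were compared with blastn 2.17.0 (at least 85% identity over 100 bases). Named genes were the 10 receptors, Cgas, Syk, Card9, Fcer1g, Ptpn6, Mrc1, Clec5a, and from each list the 3 called genes with the largest change per comparison. Some others were named after their values were seen: Clec4b1 for its shared sequence, and those named to complete a count. The receptors and lists were chosen with earlier results of these data known. Some list genes are not reported here, though counts over the lists include them. Alternatives changed the pseudocount, filter, scaling, spread and samples.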

Additional observations from a re-analysis of the deposited data

Results flagged for a closer look

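Clec4a1 stood out because its LPS effect differed between the genotypes in the test of that difference: on the log2 scale, the effect in cGAS-/- cells exceeded the one in WT cells by 1.98. Its UT level was lower in cGAS-/- cells, and after LPS the genotypes overlapped.

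Among genes that activating receptors induce, the effect of LPS in cGAS-/- cells exceeded the effect in WT cells by 1.96 for Il12a, by 2.05 for Il1a and by 3.14 for Il6. Il12a and Il6 were tested only because they were high in cGAS-/- LPS, so their differences are in part a condition of being tested. Dixon's test for a single outlying sample was not run on groups of 3.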

How the results depend on the processing

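With all samples, 2 receptors were called in UT cells and 1 in LPS cells between genotypes, 4 with LPS in WT cells, 4 in cGAS-/- cells and 1 for the difference of the LPS effects. In UT cells this became 1 with a pseudocount of 0.1 or a filter of 5 TPM, and 0 when tested against a log2 change of 1 (treat). It became 5 with sample weights or the UT samples alone, where 1369 and 1241 of 11887 genes were called in place of 218. With LPS it became 0 with a pseudocount of 0.1, no filter, rescaling to a common total, sample weights, treat or the LPS samples alone. With treat the LPS effect in WT cells gave 2. In cGAS-/- cells sample weights gave 9 and those samples alone 8, where 5746 and 5305 of 11887 genes were called in place of 1643. For the difference of the LPS effects a pseudocount of 5 and rescaling to a common total gave 2 and treat 0. Leaving out 1 sample gave 2 to 4 and 0 to 2 between genotypes in UT and LPS cells, 4 to 7 and 3 to 7 with LPS in WT and cGAS-/- cells, and 0 to 4 for the difference. Apart from leaving out WT LPS replicate 3, which gave or shared the highest number in each, the cause was not tested.

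With a replicate block, 0 were called with LPS between genotypes and 0 for the difference of the LPS effects (Clec4e, adjusted p = 0.0754; Clec4a1, 0.0577), and the other numbers did not move by over 1.5 times. Deviations of same-numbered samples correlated at -0.0315 to 0.0383, and 4 of 12 samples correlated best with their own number, so the numbers were not taken to pair samples. Over all genes the block gave 179 calls in place of 281 between genotypes with LPS and 54 in place of 107 for the difference of the LPS effects.

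Signs turned only for values that were not called with all samples. Between genotypes with LPS, Clec4a1 was 0.083 after rescaling to a common total and 0.094 after quantile normalization, Clec4d was -0.057 with sample weights, and Clec7a was -0.015 with a pseudocount of 5, -0.044 after quantile normalization and -0.38 with sample weights. In UT cells Clec7a was 0.02 after quantile normalization. With LPS in WT cells Clec4a2 and Clec4a3 were -0.13 and -0.20 after rescaling to a common total, and Clec4n was 0.11 with sample weights. In cGAS-/- cells Clec12a was 0.007 with TMM factors. For the difference of the LPS effects Clec4d was -0.25 with sample weights, and Clec7a -0.064 after quantile normalization and -0.28 with sample weights. Leaving out 1 sample, values between genotypes with LPS ran from -0.20 to 0.20 for Clec4a1, -0.12 to 1.60 for Clec4a2, -0.95 to 0.35 for Clec4a3, -0.23 to 1.01 for Clec4d and -0.49 to 0.38 for Clec7a. With LPS in WT cells they ran from -0.45 to 1.27 for Clec4a2, -0.45 to 0.86 for Clec4a3 and -0.89 to 0.18 for Clec4n, and for the difference from -0.43 to 0.81 for Clec4d and -0.40 to 0.46 for Clec7a. Over all genes, leaving out WT LPS replicate 3 gave 633 calls in place of 218 in UT cells, 984 in place of 281 with LPS between genotypes, 3663 in place of 1643 with LPS in cGAS-/- cells and 542 in place of 107 for the difference, and leaving out WT LPS replicate 2 gave 3312 between genotypes with LPS, 5785 in place of 3286 with LPS in WT cells and 1496 for the difference. Leaving out 1 cGAS-/- LPS sample gave 77 to 95 between genotypes with LPS, 1020 to 1062 with LPS in cGAS-/- cells and 44 to 47 for the difference. Leaving out 1 cGAS-/- UT sample gave 1046 to 1072 with LPS in cGAS-/- cells. Leaving out 1 UT sample gave 169 to 187 between genotypes with LPS, 122 to 146 in UT cells and 42 to 58 for the difference, and without 1 WT UT sample there were 1961 to 2070 with LPS in WT cells. In UT cells sample weights gave 1369, the UT samples alone 1241, a pseudocount of 0.1 gave 92 and treat 22. Between genotypes with LPS the LPS samples alone gave 5, and treat 28. Rescaling to the protein-coding total was added after the data were seen. Depth is unknown, and with 3 samples a group the spread itself is poorly known.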
